A study of Mus musculus with 36 samples.

Results

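The cytosolic ribosomal proteins are described here in satellite cells, the muscle stem cells of the mouse, as transcript levels in 36 RNA-seq libraries. The members were the protein-coding genes with a ribosomal protein symbol of the Rpl or Rps kind, together with Rplp1, Rplp2 and Rpsa and without the ubiquitin fusion gene Rps27a. They numbered 82 of the 55471 gene identifiers in the tables, 31 of the small subunit and 51 of the large subunit.

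All mice were C57BL/6. Control mice carried Pax7-CreER and ROSA26YFP, and KO mice carried Pax7-CreER, ROSA26YFP and Drp1fl/fl. Both were tamoxifen-treated at 3 months of age, so that the satellite cell driver Pax7-CreER deleted Drp1, the gene for the mitochondrial fission GTPase, in KO cells only. Cells were sorted from uninjured muscle as YFP+ quiescent satellite cells (QSC), at 1 day after cardiotoxin injury (1 DPI) as YFP+ cells, and at 3 DPI as CD34-YFP+ cells, so the gate differed at 3 DPI. Control libraries numbered 3 QSC, 4 at 1 DPI and 3 at 3 DPI, and KO libraries numbered 3, 4 and 4. A second table held wild-type mice, for which no reporter or sort gate is named: 3 young QSC and 3 young 1 DPI libraries from mice of 3 months, and 3 old QSC, 3 old 1 DPI and 3 old 3 DPI libraries from mice of 24 months. Levels are TPM, the length-normalised share of a gene among all transcripts of a library, which keep no read depth, so the depth is unknown. Nothing states that the libraries of a group came from separate animals, so a p-value speaks only to variation among the libraries. In bulk RNA of sorted cells, fewer cells of a type and less RNA per cell cannot be told apart.

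A ribosomal protein is made in step with its partners, since each subunit takes up its proteins in fixed proportion with ribosomal RNA. In vertebrates nearly all their mRNAs begin with a C followed by a run of pyrimidines, the 5′ terminal oligopyrimidine tract, through which mTOR signalling controls their translation. Satellite cells leaving quiescence enlarge and build ribosomes before they divide, and some ribosomal proteins have a paralogue that can replace them, as Rps27l does for Rps27 and Rpl22l1 for Rpl22.

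The start regions of these paralogue pairs are shown because the results below describe both pairs. They come from RefSeq, build GRCm38.p6, and cover 15 bases before and 15 after an annotated start. They lie at chr3:90213634-90213663 (minus strand), chr9:66946071-66946100 (plus), chr4:152324421-152324450 (plus) and chr3:28805493-28805522 (plus), in that order. Capitals mark each C followed by 4 or more pyrimidines.
Rps27: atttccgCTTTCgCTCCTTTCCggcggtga
Rps27l: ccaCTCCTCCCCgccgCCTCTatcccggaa
Rpl22: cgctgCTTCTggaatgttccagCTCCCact
Rpl22l1: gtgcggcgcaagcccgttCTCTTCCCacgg
Each of the 4 windows held such a run, counted anywhere in the window and not only at the start. RefSeq gives a second start for Rps27l and for Rpl22, with windows at chr9:66946398-66946427 and chr4:152325711-152325740 that held none. Among the 63 members with a RefSeq start, 66.7% held one in the window of 1 or more starts, against 41.2% of 16513 genes. Tested members with a run (39) and without (21) had median log2 changes from QSC to 1 DPI of 0.214 and 0.219 in control cells. The medians were 0.251 and 0.277 in KO, -0.1 and -0.0828 in young, and 0.197 and 0.214 in old cells. In the 300 bases around the start, the ETS letters CCGGAAG, searched on both strands, were found in 41.3% of members and 13.4% of genes. The YY1 letters AAGATGGC were found in 9.52% and 3.64%, and the TATA letters TATAAA in 9.52% and 14.3%. These matches are descriptions of sequence and not binding sites.

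The members were among the most abundant transcripts of these cells. In the control and KO libraries 79 of the 82 had a mean of 100 TPM or more, 48 had 1000 or more, and 59 stood among the 200 most abundant genes. Rps27, a zinc-finger protein of the small subunit, was the highest at 5202 ± 1010 TPM (SD, 21 libraries) and ranked 11 among all genes. Rpl32, Rpl41 and Rps19 were also among the highest, with means of 3409, 3221 and 3179 TPM, which lay closer together than their spread. The lowest tested members were Rpl12 and Rpl21, at 104 and 138 TPM. The other 3 of the 82 were Rpl3l, the striated muscle paralogue of Rpl3, at 0.347 TPM, Rpl39l at 0.291 TPM and Rpl10l, listed at 0. These 3 failed the minimum of 1 TPM in 3 libraries and were not tested, and the other 79 passed it in both tables.

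In control cells the members together held 9.99, 9.92 and 9.74% of all TPM in QSC, 10.3, 11.8, 9.79 and 12.6% at 1 DPI, and 11.4, 11.4 and 11.5% at 3 DPI. The 3 DPI libraries all lay above the QSC libraries, and the 1 DPI libraries spread across both. KO cells held 10.3, 8.35 and 9.47% in QSC, 11.5, 7.61, 11.9 and 12.03% at 1 DPI, and 11.7, 11.3, 11.0 and 11.3% at 3 DPI. KO 1 DPI replicate 2, at 7.61%, was the lowest of the 21 control and KO libraries. The wild-type table carries a factor for each gene, so its shares can be read only against each other. Its mean shares were 11.9 ± 1.24% in young QSC, 10.7 ± 0.707% in young 1 DPI, and 10.7 ± 1.15, 11.3 ± 0.570 and 10.8 ± 1.02% in old QSC, 1 DPI and 3 DPI cells (SD, n = 3 each), and these ranges overlapped.

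**Figure D1:**
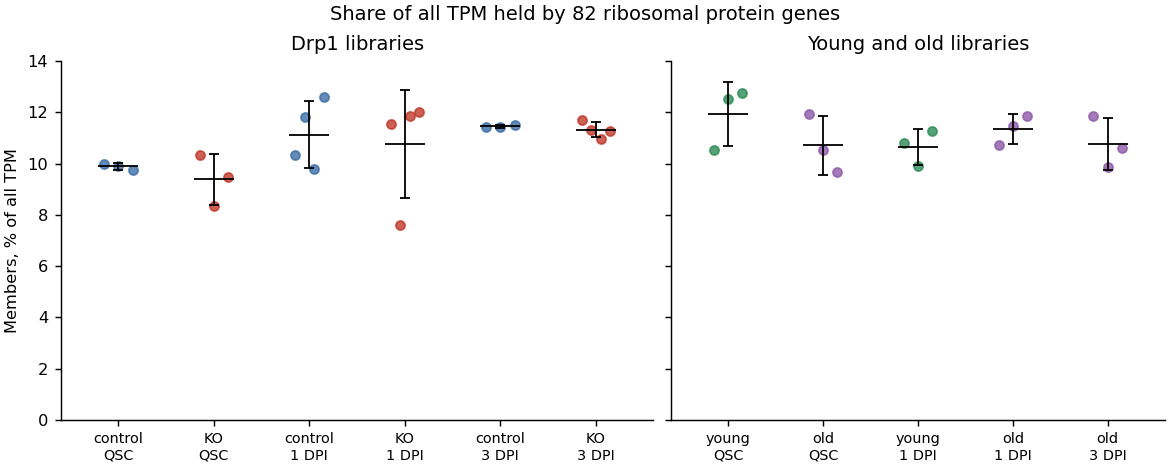
Share of all TPM held by the 82 ribosomal protein genes (percent, vertical axis) in each library, by group, with points for libraries and bars for the mean and SD. Control 3 DPI libraries, at 11.4 to 11.5%, all lie above control QSC libraries, at 9.74 to 9.99%. A KO 1 DPI library lies apart at 7.61%. Shares of young and old libraries can be read only against each other.

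Macrophage marker genes ran opposite to this share in control and KO cells at 1 DPI. All 12 genes of the list reached 1 TPM in every control and KO library at that time, and none was at 0. Their summed level in the control 1 DPI libraries, replicates 1 to 4, was 2887, 909, 4318 and 349 TPM, the reverse of the order of the ribosomal protein share. In the KO 1 DPI libraries it was 1480, 8981, 699 and 542 TPM, again the reverse of the order of the share, with replicate 2 at 8981 TPM. Neutrophil markers, of which 6 to 8 of the 10 reached 1 TPM per library, summed to 3292, 1269, 4463 and 341 TPM in control and 1143, 5092, 411 and 533 TPM in KO 1 DPI libraries. That is the order of the macrophage sums in control cells, and in KO cells too except that replicates 3 and 4 changed places. In QSC the neutrophil markers summed to 6.90 to 41.1 TPM in control and KO cells. The macrophage markers summed there to 53.9 to 127 TPM. In young and old 1 DPI cells, at 162 to 796 and 215 to 773 TPM, the 2 orders did not mirror each other. Old 3 DPI libraries had macrophage sums of 7455 to 9147 TPM beside ribosomal protein shares of 9.86 to 11.9%. Satellite cell markers summed to 2548 to 3435 TPM in QSC, 787 to 1569 at 1 DPI and 802 to 1122 at 3 DPI in control and KO cells. Within the wild-type table they summed to 2580 to 4345 in QSC, 1099 to 1879 at 1 DPI and 540 to 749 at 3 DPI. One old QSC library, replicate 1, stood apart with 4846 TPM of neutrophil markers, against 35.7 and 28.6 TPM in the other two. The part of these cells in the results was not tested.

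**Figure D2:**
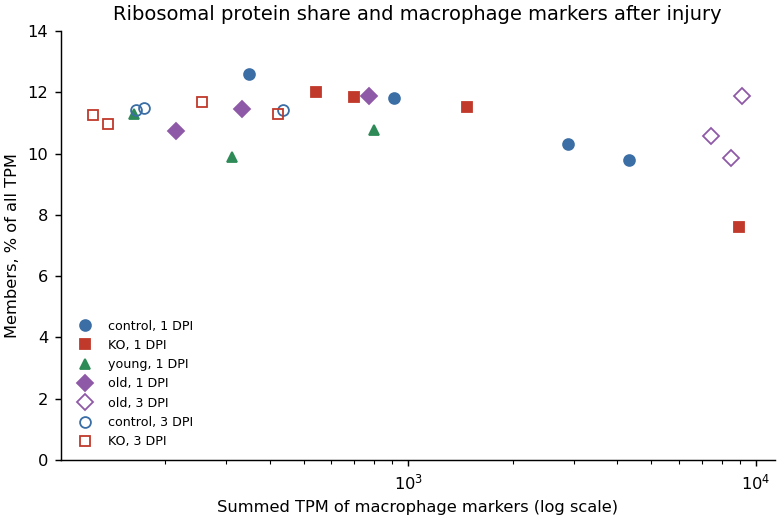
Ribosomal protein share of all TPM (percent, vertical axis) against the summed level of macrophage marker genes (TPM, log axis) in the libraries after injury, with colour and symbol for the group and open symbols for 3 DPI. KO 1 DPI replicate 2 has 8981 TPM of macrophage markers and a share of 7.61%. Young and old libraries can be read only against each other.

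Between QSC and 1 DPI single ribosomal proteins were called in opposite directions, as were genes at large. Across the 4 comparisons of 1 DPI with QSC (control, KO, young and old), 33 members were called higher in 1 or more and lower in none. A further 11 were called lower in 1 or more and higher in none, 35 were called in none, and no member was called in both directions. Of the 16378 genes tested in both tables, 36.5% were called higher in 1 or more and lower in none, 19.5% lower in 1 or more and higher in none, 43.8% in none and 0.311% in both directions. A call is a Benjamini-Hochberg adjusted p under 0.05 in limma, fitted on log2(TPM + 1) over all genes of a table, and fold changes are on that scale. Control cells had 29 members higher and 2 lower, 39.2% of those measured, where 35.9% of all genes were called, 23.3% higher and 12.6% lower. KO cells had 24 higher and 0 lower against 32.1% of all genes, 21.6% higher and 10.6% lower, and 33 members had an unadjusted p under 0.05 in limma. Young cells had 6 higher and 11 lower against 32% of all genes, 23.2% higher and 8.79% lower. Old cells had 18 higher and 5 lower against 32.5%, 24.8% higher and 7.72% lower. These shares of called members were near or below the background, so the number called is no result about the ribosomal proteins. Median changes were 0.22, 0.25, -0.08 and 0.20 in control, KO, young and old cells, beside 0.15, 0.16, 0.24 and 0.27 over all genes tested.

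Within the small subunit, Rps27l rose while the abundant Rps27 was lower. Rps27l, whose human counterpart is a p53 target, stood at 461, 531 and 441 TPM in control QSC and at 835, 887, 705 and 1147 TPM at 1 DPI. The groups did not overlap, and the change was 0.88 (SE 0.18, limma adjusted p = 0.000547). Rps27 stood at 7402, 6433 and 6460 TPM in control QSC and at 4476, 4918, 4134 and 5923 TPM at 1 DPI. These groups did not overlap either, and Rps27 fell by 0.49 (limma adjusted p = 0.0189). Without control 1 DPI replicate 3 or control QSC replicate 1 that p was 0.0591 or 0.0869. In KO cells Rps27l rose by 1.10 (limma adjusted p = 7.17e-05), and Rps27 changed by -0.35 (limma adjusted p = 0.0975), which is no call. In young cells Rps27l rose by 0.71 and Rps27 fell by 0.86 (limma adjusted p = 0.00147 and 0.00379). In old cells Rps27l rose by 1.10 and Rps27 fell by 0.75 (limma adjusted p = 3.46e-05 and 0.00846).

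The ratio of the pair does not depend on how a library is scaled. Rps27l came to 6.23, 8.26 and 6.82% of Rps27 in control QSC, to 18.7, 18.0, 17.0 and 19.4% at 1 DPI, and to 28.2, 29.4 and 29.2% at 3 DPI. The 3 times did not overlap. KO cells gave 5.48, 6.52 and 10.2%, then 20.2, 20.05, 17.9 and 20.2%, then 25.2, 25.5, 29.6 and 26.9%. These too did not overlap, and they included KO 1 DPI replicate 2. In the wild-type table, where each gene carries a factor of its own, only the change of the ratio can be read. Its group mean rose 2.96-fold in young and 3.48-fold in old cells by 1 DPI, with no overlap, and 1.33-fold from 1 DPI to 3 DPI in old cells, where these 2 times overlapped. Rps27 alone held 6.84 ± 0.495% of the TPM of all members in control QSC, 4.35 ± 0.238% at 1 DPI and 4.07 ± 0.0702% at 3 DPI.

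**Figure D3:**
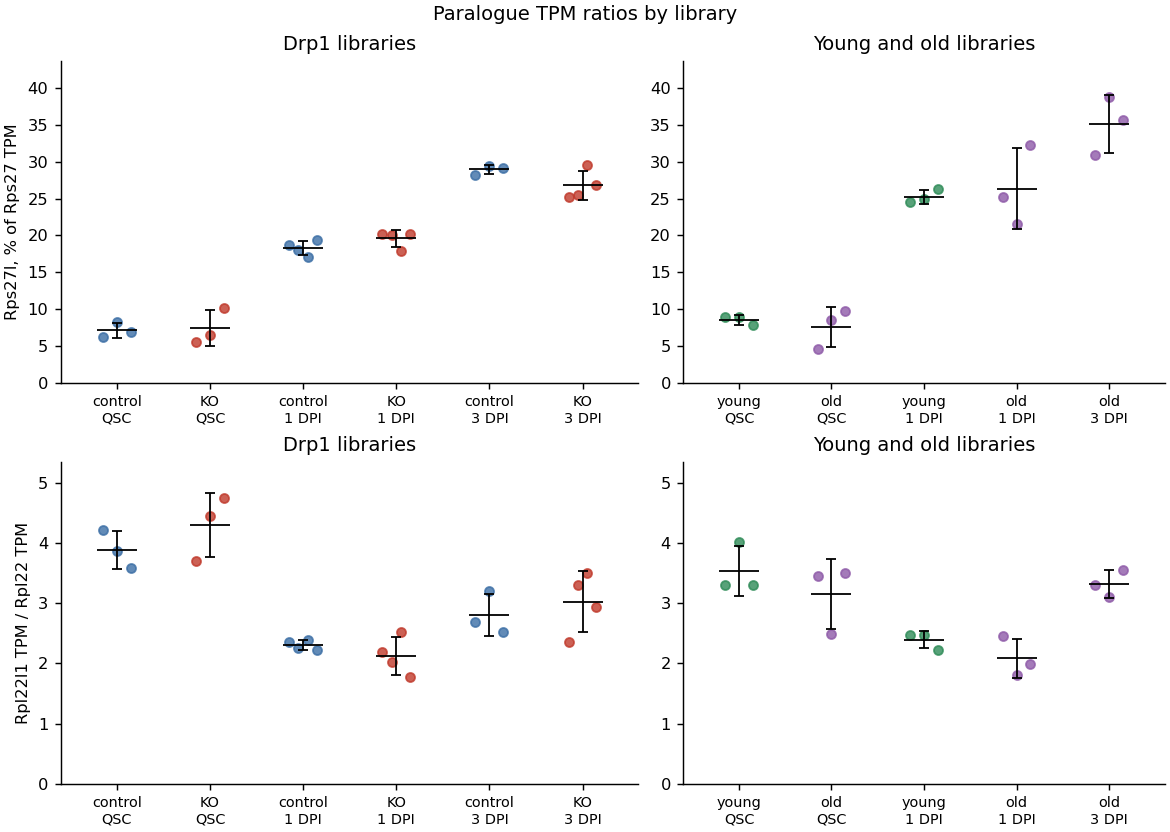
Ratio of the paralogue to its partner by library for Rps27l over Rps27 and Rpl22l1 over Rpl22, by group, with points for libraries and bars for the mean and SD. In young and old cells only changes between groups can be read. Rps27l rises from 5.48 to 10.2% of Rps27 in control and KO QSC to 25.2 to 29.6% at 3 DPI, while Rpl22l1 falls relative to Rpl22 by 1 DPI.

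The large-subunit pair went the other way. Rpl22, an RNA-binding protein at the surface of the large subunit, stood at 227, 254 and 253 TPM in control QSC and at 373, 449, 400 and 440 TPM at 1 DPI. It rose by 0.76, 0.77, 0.46 and 0.63 in control, KO, young and old cells (limma adjusted p = 0.00045, 0.000498, 0.00908 and 0.000967), with no overlap between the groups in any of them. Its paralogue Rpl22l1 was called in none of the 4, with 950 ± 39.2 TPM in control QSC and 956 ± 55.2 TPM at 1 DPI. The ratio of Rpl22l1 to Rpl22 therefore went from 3.89 ± 0.317 to 2.31 ± 0.084 and then 2.81 ± 0.356 at 3 DPI in controls. In KO cells it went from 4.30 ± 0.537 to 2.13 ± 0.311 and 3.03 ± 0.508.

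Rpl29, a small basic protein of the large subunit, showed one of the largest rises. It stood at 146, 198 and 157 TPM in control QSC and at 330, 378, 330 and 367 TPM at 1 DPI, a rise of 1.08 (SE 0.14, limma adjusted p = 4.61e-06). It rose by 1.02 in KO, 0.74 in young and 0.98 in old cells. In all 4 comparisons 6 of the 79 were called higher, among them Rpl22, Rpl29, Rpl31 and Rps27l, where 14.9% of all genes were. No member was called lower in all 4, where 3.6% of all genes were. Rpl31 rose by 0.58, 0.52, 0.30 and 0.66 in control, KO, young and old cells. With median-of-ratios scaling its change in young cells turned to -0.034. With that scaling 0 members were called higher in all 4 comparisons and 10 lower, against 9.98 and 7.86% of all genes.

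Other members were called in only some of the comparisons. Rpl39, Rpl41 and Rps21, which are among the smallest ribosomal proteins, rose by 0.81, 0.79 and 0.86 in control cells and by 0.66, 0.80 and 0.89 in KO cells. In young cells their changes of 0.26, 0.44 and 0.35 were not calls. The 11 members called lower included Rpl5, Rpl9, Rpl12, Rpl13, Rpl32, Rps3, Rps14, Rps19 and Rps27, and all 11 were called in young cells. With copies of the genes summed, the Rpl12 value was 0.045 in young and 0.30 in old cells. Rpl5, which carries 5S ribosomal RNA and binds Mdm2, also fell by 0.48 in control cells, where its value with copies summed was 0.33. Rps14 and Rps19, both needed to mature the small subunit, fell by 0.55 and 0.59 in young cells and changed by -0.27 and -0.22 in controls without a call. Rpl36al, a paralogue of Rpl36a, rose by 0.60, 0.53 and 0.67 in control, KO and old cells, and its change of 0.28 in young cells was no call. Rpl7l1, a paralogue of Rpl7, rose by 0.88 in old cells, and its changes of 0.12, 0.11 and 0.04 in control, KO and young cells were not calls.

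**Figure D4:**
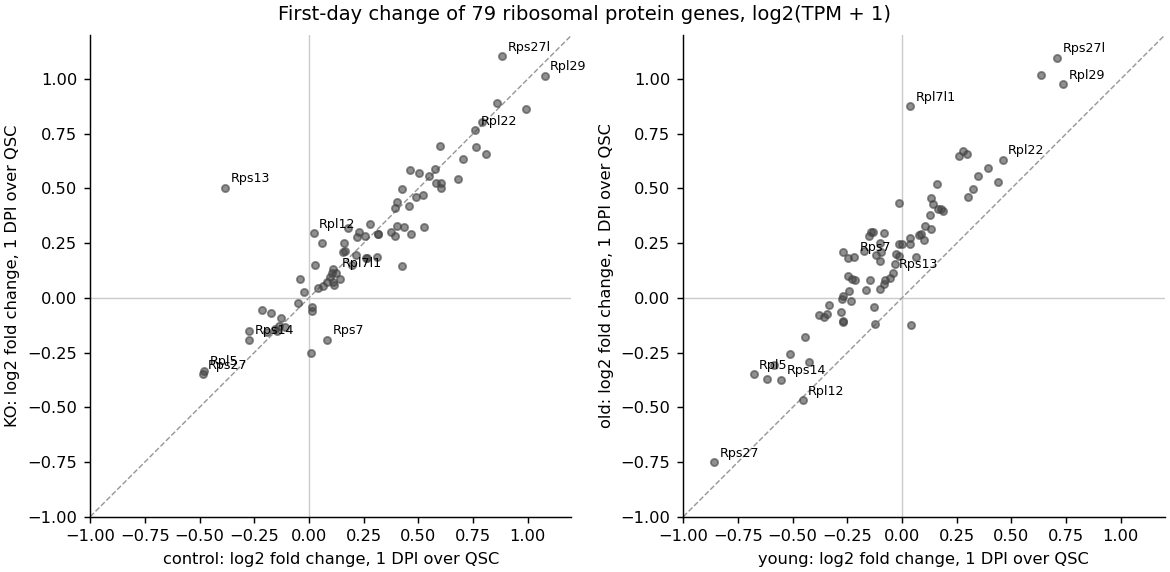
Change from QSC to 1 DPI (log2 scale) of the 79 tested members, 1 point each, with control against KO cells on the left and young against old cells on the right. The dashed line marks equal change. Rps27l and Rpl29 lie at the upper right and Rps27 at the lower left of both panels.

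The direction of the members as a group depended on the scaling. With median-of-ratios scaling the members' median change turned to -0.13, -0.06, -0.41 and -0.24 in control, KO, young and old cells. All genes then had medians of -0.04, -0.03, 0.02 and -0.03. Control cells had 10 members higher and 21 lower, against 18.1 and 19.9% of all genes, and KO cells 10 and 17, against 16.5 and 17%. Young cells had 0 higher and 35 lower, against 16.9 and 14%, and old cells 3 and 19, against 17.5 and 14.9%. When each library was scaled by its median ratio over the members, so that they centre on no change, control cells had 23 members higher and 18 lower, against 18.7 and 16.5% of all genes. KO cells had 21 and 18, against 16.7 and 14.8%, young cells 8 and 10, against 23.5 and 6.48%, and old cells 12 and 14, against 20.5 and 8.82%. With that scaling 7 members rose in all 4 comparisons, namely the 6 above and Rpl30. In all 4 comparisons 10 members fell, among them Rpl5, Rpl9, Rpl13, Rpl32, Rps3, Rps14, Rps19 and Rps27. Of all genes 12 and 3.62% rose and fell in all 4. That scaling was chosen after the data were seen. Without KO 1 DPI replicate 2, the KO comparison had 50 members higher and 0 lower, against 21.6 and 9.58% of all genes, and a median of 0.41. Without KO QSC replicate 2 it had 15 higher, against 18.8% of all genes.

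Short transcripts had a more positive median change than long ones. The 19 members with the shortest transcripts, 345 to 552 bases, had median changes of 0.43, 0.32, 0.04 and 0.29 in control, KO, young and old cells. The 19 longest, 1059 to 3706 bases, had 0.13, 0.18, -0.10 and 0.19. Spearman's rho between length and change was -0.32, -0.33, -0.22 and -0.23 over 79 members, given as a description of genes that share libraries. By subunit, control medians were 0.31 for the small and 0.17 for the large subunit, and KO medians were 0.32 and 0.19. Young and old cells showed less separation, with -0.08 and -0.10 in young and 0.21 and 0.19 in old cells.

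From 1 DPI to 3 DPI few members were called. In control cells only Rps27l was called, 1 of 79 where 13.3% of all genes were, 5.09% higher and 8.25% lower. It stood at 1286, 1377 and 1382 TPM at 3 DPI, above all 4 libraries at 1 DPI, a rise of 0.62 (SE 0.18, limma adjusted p = 0.0259). Without control 1 DPI replicate 1 or 3, or without any one of the 3 DPI libraries, that call was lost, at limma adjusted p = 0.0571 to 0.0864. In KO cells 8 members were called higher, against 6.8% of all genes higher, 12.1% lower and 18.9% in either direction, namely Rpl10, Rpl22l1, Rpl27, Rpl30, Rpl39, Rps15a, Rps28 and Rpsa. Their rises ranged from 0.31 for Rps28 to 0.51 for Rpsa, the laminin receptor protein of the small subunit. Without KO 1 DPI replicate 2 the calls were 1 higher and 4 lower, against 5.46 and 11.1% of all genes. Without a single 3 DPI library, replicate 1, 2, 3 or 4, the members called higher numbered 4, 2, 5 and 2, against 5.91, 6.29, 5.8 and 5.69% of all genes. In old cells Rpl22l1 rose by 0.50 (limma adjusted p = 0.0354), where 17.5% of all genes were called, 5.74% higher and 11.8% lower. That call was lost without old 1 DPI replicate 2 or 3 or without old 3 DPI replicate 1 or 3. Rpl7l1 fell by 0.78, from 323 to 186 TPM, and Rpl13 fell by 0.47, from 2857 to 2067 TPM (limma adjusted p = 0.00486 and 0.00744). The members' medians were 0.07, 0.10 and -0.08 in control, KO and old cells, beside -0.13, -0.17 and -0.24 over all genes. Macrophage markers in the 3 old 3 DPI libraries summed to 9147, 8469 and 7455 TPM, and their part was not tested.

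The KO and control cells were compared to ask what loss of Drp1 does to these transcripts. The targeted gene, listed as Dnm1l, stood at 36.2 ± 4.64 TPM in control and 36.7 ± 5.84 TPM in KO QSC (SD, n = 3), at 48.7 ± 3.71 and 34.7 ± 5.92 TPM at 1 DPI (n = 4), and at 65.4 ± 4.20 (n = 3) and 28.3 ± 6.82 TPM (n = 4) at 3 DPI. The groups overlapped in QSC and did not at 1 and 3 DPI. A gene total also counts transcripts that lack the deleted part, and their part in the KO levels was not tested.

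Hardly any ribosomal protein was called between KO and control cells. In QSC limma called 0 of 79 members, with 1 at an unadjusted p under 0.05, and 0.213% of all genes were called. At 1 DPI and 3 DPI 1 member was called, Rps7 in both, where 0.278 and 0.283% of all genes were called, 0.153 and 0.125% lower. The members' median changes were -0.06 in QSC, -0.06 at 1 DPI and -0.03 at 3 DPI, beside 0.013, 0.0012 and -0.0036 over all genes. Of the 79 members 66, 65 and 51 lay below 0 at these times, while 52.6, 50.1 and 46.6% of all genes lay above 0. KO QSC replicate 2 and KO 1 DPI replicate 2 held the lowest member shares of their groups, 8.35 and 7.61% of all TPM. The other KO 1 DPI libraries held 11.5 to 12.03%, and the control 1 DPI libraries 9.79 to 12.6%. At 3 DPI the KO libraries held 11.0 to 11.7% and the control libraries 11.4 to 11.5%. Whether the counts below 0 reflect genotype or these libraries was not tested. No member was called for an interaction of genotype with either step, and 0 had an unadjusted p under 0.05 in limma, against 0.0218 and 0% of all genes called.

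Rps7, a small-subunit protein that also binds Mdm2, was lower in KO cells. In controls it stood at 1193, 1486, 1067 and 1349 TPM at 1 DPI and at 1389, 1241 and 1395 TPM at 3 DPI. In KO cells it stood at 580, 864, 850 and 846 TPM at 1 DPI and at 821, 768, 789 and 817 TPM at 3 DPI. The groups did not overlap at either time, and the changes were -0.71 (SE 0.13, limma adjusted p = 0.0203) and -0.75 (SE 0.14, limma adjusted p = 0.0232). In QSC the difference of -0.43 was no call (limma adjusted p = 0.710). Leaving out KO replicate 1 or control replicate 2 or 4 at 1 DPI gave limma adjusted p = 0.0645, 0.101 and 0.0819. At 3 DPI the call was lost without KO replicate 2, 3 or 4 or any one control library, at 0.0539 to 0.124.

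The lower Rps7 value was matched by a higher value of a near-identical processed copy. Rps7 lies at chr12:28630854-28635953 on the minus strand, and its copy Gm6472 at chrX:152909505-152910155, also minus, in GRCm38. Over 651 aligned bases they are 99.4% identical and differ at 4 positions. At 3 of them, the transcript (GENCODE M21, first member, then copy) reads as follows, with the differing base in capitals and positions counted from the 5′ end of Rps7-201.
Rps7 at T133G: gagcgccaagatcgTgaagcccaatggcg
Gm6472 at T133G: gagcgccaagatcgGgaagcccaatggcg
Rps7 at G155A: aatggcgagaagccGgacgagttcgagtc
Gm6472 at G155A: aatggcgagaagccAgacgagttcgagtc
Rps7 at G230T: aaggcgcagctgcgGgaactcaacatcac
Gm6472 at G230T: aaggcgcagctgcgTgaactcaacatcac
Outside the 4 differing positions a read of this stretch matches both genes equally. The first letter of each token is the Rps7 base and the last letter that of the copy.

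In QSC Gm6472 stood at 263, 276 and 220 TPM in control and at 901, 230 and 826 TPM in KO cells. It stood at 355, 247, 281 and 279 TPM in control cells at 1 DPI and at 249, 233 and 200 TPM at 3 DPI. In KO cells it stood at 1158, 299, 936 and 832 TPM at 1 DPI and at 895, 850, 933 and 831 TPM at 3 DPI. KO 1 DPI replicate 2 was at the control level and the other KO libraries of those times lay above every control library. Gm6472 also varied within groups of the wild-type table, where genotype does not differ. It ranged from 0.102 to 702 TPM in young QSC and from 158 to 393 TPM in old QSC. At 1 DPI it ranged from 43.6 to 231 TPM in young and from 18.3 to 472 TPM in old cells. In old 3 DPI libraries it ranged from 0.0854 to 304 TPM. Rps7 made up 77.1 to 87.5% of the pair in all control libraries. It made up 48.2, 82.7 and 47.7% in KO QSC, 33.4, 74.3, 47.6 and 50.4% in KO 1 DPI and 45.8 to 49.6% in KO 3 DPI libraries. The sum of the pair was 1446, 1564 and 1569 TPM in control and 1549, 1591 and 1676 TPM in KO cells in QSC, 1 DPI and 3 DPI. With copies summed, the Rps7 change was 0.01 at 1 DPI and 0.09 at 3 DPI (limma adjusted p = 1 for both), neither a call. Gm6472 itself was called at 3 DPI, with a change of 1.95 (SE 0.39, limma adjusted p = 0.0327), and not at 1 DPI, with 1.32 (limma adjusted p = 0.345).

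**Figure D5:**
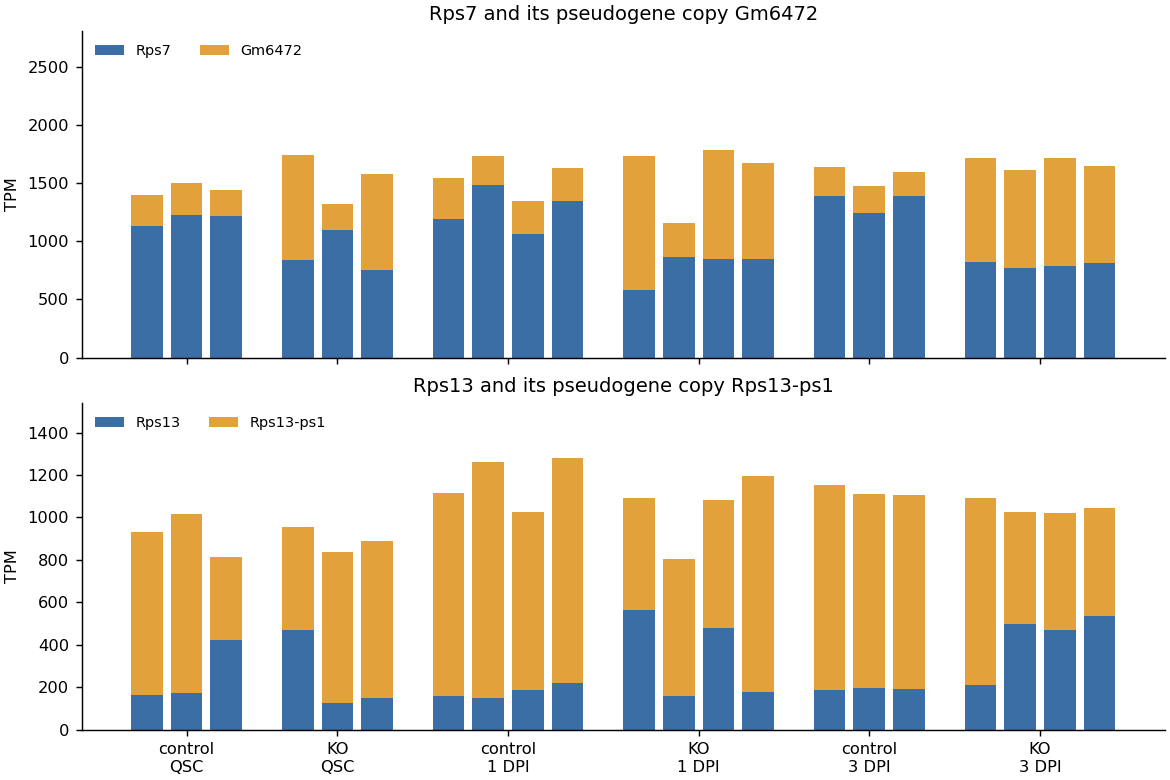
Stacked bars of the TPM of Rps7 with its copy Gm6472 (upper panel) and of Rps13 with Rps13-ps1 (lower panel), 1 bar for each control or KO library. In most KO libraries Gm6472 stands at 826 to 1158 TPM, against 200 to 355 TPM in controls, while the pair sums of the groups stay close.

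Rps13, another small-subunit protein, also divided unevenly with its copy, with no difference called between genotypes. It lies at chr7:116331505-116334195 on the minus strand. The copy Rps13-ps1 on chromosome 8 is 99.6% identical over 522 bases, with 2 differences. Rps13 stood at 164, 174 and 420 TPM in control QSC and at 471, 124 and 151 TPM in KO QSC. It stood at 157, 148, 186 and 219 TPM in control and 564, 157, 479 and 175 TPM in KO cells at 1 DPI. Libraries of one group thus lay at either a low or a high level. At 3 DPI control libraries held 188, 194 and 193 TPM and KO libraries 208, 500, 471 and 534 TPM. The changes of 0.74 and 1.07 at 1 and 3 DPI were not calls (limma adjusted p = 1 and 0.868).

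Copies took up much of the signal of some members. Across the genome 607 copies of 77 members were found, and the 5 members with none included Rpl41 and Rps27l. For 45 members under 1% of the TPM of gene and copies lay in copies, and for 7 members 50% or more did. These 7 included Rpl5 (89.7%), Rpl12 (85.3%), Rpl27a (77.6%), Rps13 (73.2%), Rps23 (65.5%) and Rpl28 (51.4%), whose own levels are uncertain for that reason. The fall of Rpl5 in control cells stood beside a rise of its copy Gm15500 from 1192 to 1614 TPM (limma adjusted p = 0.031), and the value with copies summed is given above. With copies summed 4 members were called higher in all 4 comparisons, Rpl22, Rpl29 and Rps27l among them, and Rpl31 was not. No member was called lower in all 4, against 15 and 3.64% of all genes higher and lower.

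Old and young cells were compared within the wild-type table. In QSC limma called 0 members, 10 had an unadjusted p under 0.05, and 0.726% of all genes were called. The members' median difference, old minus young, was -0.16, beside -0.04 over all genes, and 74 of 79 were below 0. Markers of macrophages, neutrophils and erythroid cells had mostly positive differences in old QSC. Myofibre markers went the other way, with 3 above and 10 below 0 and a median of -0.15. Fibro-adipogenic markers had 7 above and 3 below 0, with 1 called in each direction. Of the macrophage markers 11 of 12 lay above 0, with a median of 1.07 and 1 called, and they summed to 429, 108 and 401 TPM in old and 91.9, 36.4 and 48.2 TPM in young QSC. All 8 measured neutrophil markers lay above 0, with a median of 2.52, at sums of 28.6 to 4846 TPM in old and 5.64 to 17.9 TPM in young QSC. All 4 measured erythroid markers did too, with a median of 1.996 and sums of 6.03 to 1698 TPM in old and 3.83 to 39.7 TPM in young QSC. The part of these cells in the difference was not tested. Without old QSC replicate 1 the members' median was -0.22 with 74 of 79 below 0. Replicate 3, at 401 TPM of macrophage markers, stays in that fit, so the omission cannot decide that part. With all libraries in, the lowest member was Rpl7l1, at 177 ± 36.0 TPM in old and 267 ± 4.29 TPM in young QSC (SD, n = 3). Its difference was -0.61 (limma adjusted p = 0.0918). Rpl39, Rps12 and Rpl15 followed at -0.43, -0.39 and -0.34, none a call. At 1 DPI limma also called 0, with 1 at an unadjusted p under 0.05 and 0.142% of all genes called, and the median was 0.10 with 69 of 79 above 0.

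The interaction of age with the first-day step was called for 0 members in limma, with 16 at an unadjusted p under 0.05 and 0.0118% of all genes called. Its median was 0.24, beside 0.06 over all genes, with 77 of 79 above 0, and Rpl7l1 was highest at 0.84 (SE 0.23, limma adjusted p = 0.310). Scaled to the members, the median was -0.02 with 35 above 0 and 44 below. The different responses named above for young and old cells were therefore not shown to differ.

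Genes that act with the ribosomal proteins moved in both directions in the first day. Of all genes 23.3% were called higher and 12.6% lower in control cells, and 21.6 and 10.6% in KO cells. The shares were 23.2 and 8.79% in young cells and 24.8 and 7.72% in old cells. Whether the lists below depart from these shares was not tested. A list of translation factors also held other genes whose mRNAs carry the pyrimidine tract, such as Nap1l1 and Npm1. Of its 18 measured genes, 4 rose and 4 fell in control cells, and 4 and 4 in KO cells. In young cells 3 rose and 5 fell, and in old cells 10 and 1. In control cells the histone chaperone Nap1l1 rose by 1.25 and the nucleolar protein Npm1 by 0.75, while the elongation factors Eef1a1 and Eef2 fell by 0.46 and 0.47. Of 14 measured genes that control ribosomal protein mRNAs, 2 rose and 5 fell in control cells, 1 and 4 in KO, 1 and 6 in young, and 0 and 4 in old cells. Myc, a transcription factor that drives ribosome production, fell by 2.08 in control cells and was called lower in all 4 comparisons. Of 12 p53 targets, which share with Rps27l a regulator known from human cells, 5 rose and 3 fell in control, 4 and 1 in KO, 4 and 2 in young, and 3 and 1 in old cells. Bax rose by 1.41, from 90.8 to 240 TPM, while Cdkn1a fell by 1.84, from 874 to 245 TPM, in control cells. In a list of 4 genes, made of ribosomal fusion genes and the stalk protein Rplp0, 1 rose in control cells in the first day, none was called in KO or old cells, and 1 fell in young cells. That was Rplp0, which fell by 0.54 (limma adjusted p = 0.00268). Rplp0 rose by 0.53 and 0.47 from 1 DPI to 3 DPI in control and KO cells. None of the genes in these 4 lists was called by limma in a genotype or age comparison. Rplp0 had a higher mean in KO than in control cells at each time, 2470 against 1675 TPM in QSC. The means were 2228 against 1591 TPM at 1 DPI and 3055 against 2274 TPM at 3 DPI. These changes of 0.56, 0.48 and 0.43 were not calls (limma adjusted p = 0.205, 0.186 and 0.427). The other 3 genes of its list lay below 0 at each time.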

How the data were processed

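The authors deposited 2 tables of gene-level TPM, 1 for control and KO libraries and 1 for the wild-type libraries. CASAVA 1.8.2, cutadapt 1.7.1 and RSEM 1.3.1 are named in the submitters' processing notes. The labels used here name no aligner. RNA was extracted with PicoPure and sequenced single-end, per the labels' protocols. The labels name both a low-input and a directional library kit. From 12325 to 14969 genes reached 1 TPM per library in the first table and 12958 to 14636 in the second. The wild-type table holds no 0 and carries a factor for each gene, so its levels, sums and ratios are read only for their changes within that table.

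Here each table was fitted separately with limma 3.58.1 in R 4.3.3, one mean per group with a trended variance, on log2(TPM + 1). Genes needed 1 TPM in 3 libraries, which left 18343 and 16949 genes, and p-values were adjusted by Benjamini and Hochberg over all of them. Copies were found with BLAST 2.17.0. Python 3.11.15 with pandas 2.3.3 and scipy 1.17.1 did the rest, and limma was tested on simulated data. The genes named are every called member, up to 5 with the largest changes in each direction with a mean of 5 TPM or more, the paralogues, the 5 highest and lowest, Dnm1l, and examples of each list. Some genes that the rule names are not reported here. The members and lists were chosen with earlier results of these data known. Alternatives were another scaling, no filter, another pseudocount, a replicate block, copies summed, only the groups compared and each library left out.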

Additional observations from a re-analysis of the deposited data

Results flagged for a closer look

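In 33 sets of 4 libraries tested, 5 had a lowest or highest value whose gap to its neighbour, over the range, exceeded Dixon's 95% critical value, and chance flags about 1 set in 20. Of these, 2 concern KO 1 DPI replicate 2, which also had the most macrophage marker TPM of its group. Its ribosomal protein share was 7.61% against a group median of 11.7% and its Rpl31 level 907 TPM against 1519 TPM. In KO 1 DPI replicate 3 the ratio of Rps27l to Rps27 was 0.179 against a median of 0.201. In KO 1 DPI replicate 1 Rps7 stood at 580 TPM against a median of 848 TPM. In KO 3 DPI replicate 1 Rps13-ps1 stood at 883 TPM against a median of 536 TPM.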

How the results depend on the processing

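Counts of members called between QSC and 1 DPI moved with the scaling, the samples fitted and single libraries.

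Beside 24 higher and 0 lower members in KO cells, median-of-ratios scaling gave 10 and 17, scaling to the members 39 in all with 18 lower, and a fit on only the groups compared 9. Beside 29 and 2 in control cells, median-of-ratios scaling gave 10 and 21, scaling to the members 18 lower, and copies summed, no filter, only the groups compared and the replicate block 1 lower each. Beside 18 and 5 in old cells, median-of-ratios scaling gave 3 and 19, no filter 15 in all with 2 lower, only the groups compared 11 in all with 10 higher and 1 lower, the replicate block 2 lower, and scaling to the members 14 lower. Beside 6 and 11 in young cells, median-of-ratios scaling gave 0 and 35, and the replicate block 2 higher.

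For 3 against 1 DPI, KO cells had 3 calls with no filter, 0 with only the groups compared and 21 scaled to the members, 10 of them lower. Control cells had 11 with median-of-ratios scaling, 0 with no filter, 2 with the replicate block and 14 scaled to the members (9 higher, 5 lower). Old cells had 1 with median-of-ratios scaling, 0 of them lower, and 0 higher with no filter or only the groups compared. The Rps7 call was lost with copies summed and scaled to the members at 1 and 3 DPI, with only the groups compared at 1 DPI and with no filter at 3 DPI (0 each), and its change became 0.011 and 0.092 with copies summed. The members' share was 12.1 and 12.7% of protein-coding TPM and 12.97 and 12.8% with copies summed, in the 2 tables. With copies summed, Rpl12 became 0.30 in old and 0.045 in young cells and Rpl5 0.33 in control cells. With median-of-ratios scaling Rpl15, Rpl3, Rps10, Rpsa and Rpl36a became -0.15, -0.14, -0.029, -0.040 and -0.00067 in old cells, and Rpl31 -0.034 in young cells. Except where a setting changes the samples, genes or scale by construction, the cause was not tested.

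Leaving out 1 library at a time gave 15 to 50 calls in KO, 21 to 32 in control, 13 to 24 in old and 13 to 18 in young cells for the first step. Higher calls ranged from 15 to 50, 20 to 32, 10 to 22 and 4 to 6, and lower calls from 0 to 1, 0 to 2, 1 to 4 and 8 to 14. For 3 against 1 DPI, calls ranged from 2 to 9 in KO, 0 to 3 in control and 2 to 5 in old cells, with 1 to 9, 0 to 3 and 0 to 1 higher and 0 to 4, 0 to 0 and 2 to 5 lower. Genotype calls ranged from 0 to 1 at both 1 and 3 DPI, and age calls in QSC from 0 to 1. KO QSC replicate 2 gave the 15, KO 1 DPI replicate 2 the 50, old QSC replicate 3 the 10, old 1 DPI replicate 2 the 13, and old QSC replicate 2 the 1 age call.

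Replicate numbers are not stated to mark shared animals, and correlations of same-numbered libraries ran from -0.212 to 0.192, so the replicate block is only an alternative. No paired analysis was possible because the young and old groups share no replicate numbers, which holds for the age comparisons and the interaction with age only. Depth is unknown, so counting error could not be computed.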
